A study of Mus musculus with 6 samples.

Results

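The 48 mitosis and cytokinesis genes described here encode the cyclins, kinases, kinetochore proteins, motors and midzone proteins with which a cell enters mitosis, separates its chromosomes and divides. They were chosen by name, and their values came from all array probes that the platform annotation gives to them. Of the 48 genes, 46 had a probe on the array, 93 probes in all. Of those genes, 35 had a probe bright enough to be tested, among 10204 genes tested on the array. Transcripts of 32 of the 35 were higher in hearts taken 3 days after ischemia and reperfusion than in uninjured hearts. Cdc25b and Pttg1 were lower, and Cenpf did not pass the test. Of all genes tested, 39.4% were higher and 34.5% lower. Of the 35, 9 were detected on no uninjured array, so they could only come out higher.

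Total RNA came from hearts of male wild-type C57Bl6 mice, with 3 arrays per group and 6 in all. The uninjured group had no surgery per the labels, although the column names of the signal table call these arrays sham. In the other group the left anterior descending coronary artery was tied for 90 min and then released, and the heart was taken after 72 h of reperfusion; it is called IR here. With unoperated controls, the surgery and the occlusion cannot be told apart. Neither the age of the mice nor the region of the heart is given in the labels.

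In a dividing cell, cyclin-bound Cdk1 drives entry into mitosis, the spindle checkpoint holds back anaphase until every chromosome is attached, and Cdc20 with the anaphase-promoting complex then releases it. Anillin, the central spindle and the passenger complex set the plane in which the cell is cleaved. Most of these genes are transcribed late in the cell cycle, and the DREAM repressor and the activators B-Myb and Foxm1 share the CHR promoter element (cell cycle genes homology region) there, often beside CCAAT boxes. Adult heart muscle cells seldom divide, whereas fibroblasts, endothelial cells and leukocytes of an infarcted heart do.

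The promoters of the genes are shown first, because most of them hold the CHR letters close to the annotated start, near one or more CCAAT boxes. The sequences are from the RefSeq promoter table of mouse build GRCm38.p6, 5′ to 3′ on the strand of the gene. Capitals mark the CHR letters searched, TTTGAA or TTCGAA, and the letters CCAAT, each on either strand, so that TTCAAA and ATTGG are also capitals. Each of the first 9 runs is the 100 bases just before the start. Apart from Pttg1, they cover every tested gene with CHR letters there, and Ube2c, which was not tested. The last of these 9, Pttg1, is shown because it holds no match and its reading was lower after injury. It is 1 picked gene. Cdc25b, not shown, holds both CHR and CCAAT letters and its brighter probe also read lower. Birc5 and Nusap1, not shown, hold neither and were higher, by 3.42 and 3.28 on the log2 scale. The Prc1 run lies before 1 of its 2 listed starts.
Cdk1 (chr10:69352913-69353012, minus strand): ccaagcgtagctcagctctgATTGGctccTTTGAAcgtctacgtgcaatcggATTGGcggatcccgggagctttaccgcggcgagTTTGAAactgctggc
Prc1 (chr7:80294376-80294475, plus strand): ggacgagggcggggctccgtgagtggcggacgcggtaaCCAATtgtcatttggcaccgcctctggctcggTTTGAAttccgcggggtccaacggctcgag
Kif11 (chr19:37376282-37376381, plus strand): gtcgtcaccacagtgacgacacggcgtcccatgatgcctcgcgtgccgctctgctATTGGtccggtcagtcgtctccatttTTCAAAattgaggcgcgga
Kif22 (chr7:127042421-127042520, minus strand): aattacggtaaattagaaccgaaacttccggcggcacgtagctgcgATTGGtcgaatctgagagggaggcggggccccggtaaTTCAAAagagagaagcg
Cdc20 (chr4:118437344-118437443, minus strand): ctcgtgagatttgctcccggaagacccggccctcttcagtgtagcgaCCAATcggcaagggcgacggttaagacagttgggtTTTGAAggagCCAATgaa
Ube2c (chr2:164769829-164769928, plus strand): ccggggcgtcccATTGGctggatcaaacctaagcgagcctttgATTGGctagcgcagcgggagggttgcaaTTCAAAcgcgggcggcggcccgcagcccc
Espl1 (chr15:102296193-102296292, plus strand): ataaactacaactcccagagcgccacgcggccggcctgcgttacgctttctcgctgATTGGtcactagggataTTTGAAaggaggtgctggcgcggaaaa
Top2a (chr11:99024190-99024289, minus strand): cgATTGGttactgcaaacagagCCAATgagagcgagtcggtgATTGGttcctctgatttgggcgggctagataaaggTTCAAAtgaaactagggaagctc
Pttg1 (chr11:43425982-43426081, minus strand): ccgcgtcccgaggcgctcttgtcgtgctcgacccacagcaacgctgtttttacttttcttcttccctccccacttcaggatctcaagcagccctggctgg

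In 4 further genes shown, the CHR letters lie after the start, and the 30 bases around them are given. These 4 were picked by name and rose by 2.75 to 3.28 on the log2 scale. Cenpf, Cenpa and Ttk, not shown, also hold CHR letters after the start, with differences of -0.25, 0.38 and 0.41. Anln has 2 CHR runs.
Aurka (chr2:172370521-172370550, minus strand): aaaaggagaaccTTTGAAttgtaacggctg
Plk1 (chr7:122159453-122159482, plus strand): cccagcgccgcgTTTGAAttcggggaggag
Spc25 (chr2:69206172-69206201, minus strand): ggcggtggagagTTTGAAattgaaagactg
Anln (chr9:22389161-22389190, minus strand): tgaaaTTCAAAtTTTGAAcggccgtggtag

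The table held a promoter, running from 250 bases before the start to 50 after it, for 40 of the 48 genes. Ccna2, Cdc25c, Foxm1, Aurkb, Incenp, Kif20a, Tpx2 and Stmn1 were not in it. CHR letters were in 28 of the 40 promoters (70%), against 16.3% of the 8274 tested genes with a promoter and 21.7% of all 27025 genes of the table. CCAAT was in 28 (70%), against 42.9% of the tested genes. Both were in 25 of the 40 (62.5%), against 7.94% of the tested genes. The E2F letters TTGGCG or TTCGCG, the first of which can overlap a reversed CCAAT, were in 10 of the 40 (25%), against 21.1% of the tested genes. Of the 40 genes, however, only 29 were themselves tested. Among these 29, CHR letters were in 72.4%, CCAAT in 62.1% and both in 62.1%. The E2F letters were in 17.2% of the 29, below the share of the tested genes. These counts are a description of the letters in the window. They say nothing of which factor binds there.

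The position of the CHR letters was close to the start. Within the window from 60 bases before to 50 after it, a window chosen after the positions were seen, 26 of the 40 promoters (65%) held them, against 4.79% of the tested genes. In the 100 bases before the start only, the count was 9 (22.5%, against 4.71%), because many of the matches lie just after it. Over the whole window, 139 other mitosis genes, described below, held CHR letters in 37.4%, CCAAT in 52.5% and both in 21.6%. Within 60 bases before to 50 after the start, 26.6% of them held CHR letters. Among 34 DNA replication genes, CHR letters were in 17.6% of whole windows, CCAAT in 64.7% and the E2F letters in 58.8%. Among the 13 G1 genes, 7.69% held CHR letters and 53.8% held CCAAT. Among the 29 tested members with a promoter, the median log2 difference between IR and uninjured hearts was 2.82 for the 21 with CHR letters (from -0.47 to 3.75) and 1.89 for the 8 without (from -0.57 to 3.42). The ranges overlapped over nearly their whole width, and no test was made of that split.

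**Figure D1:**
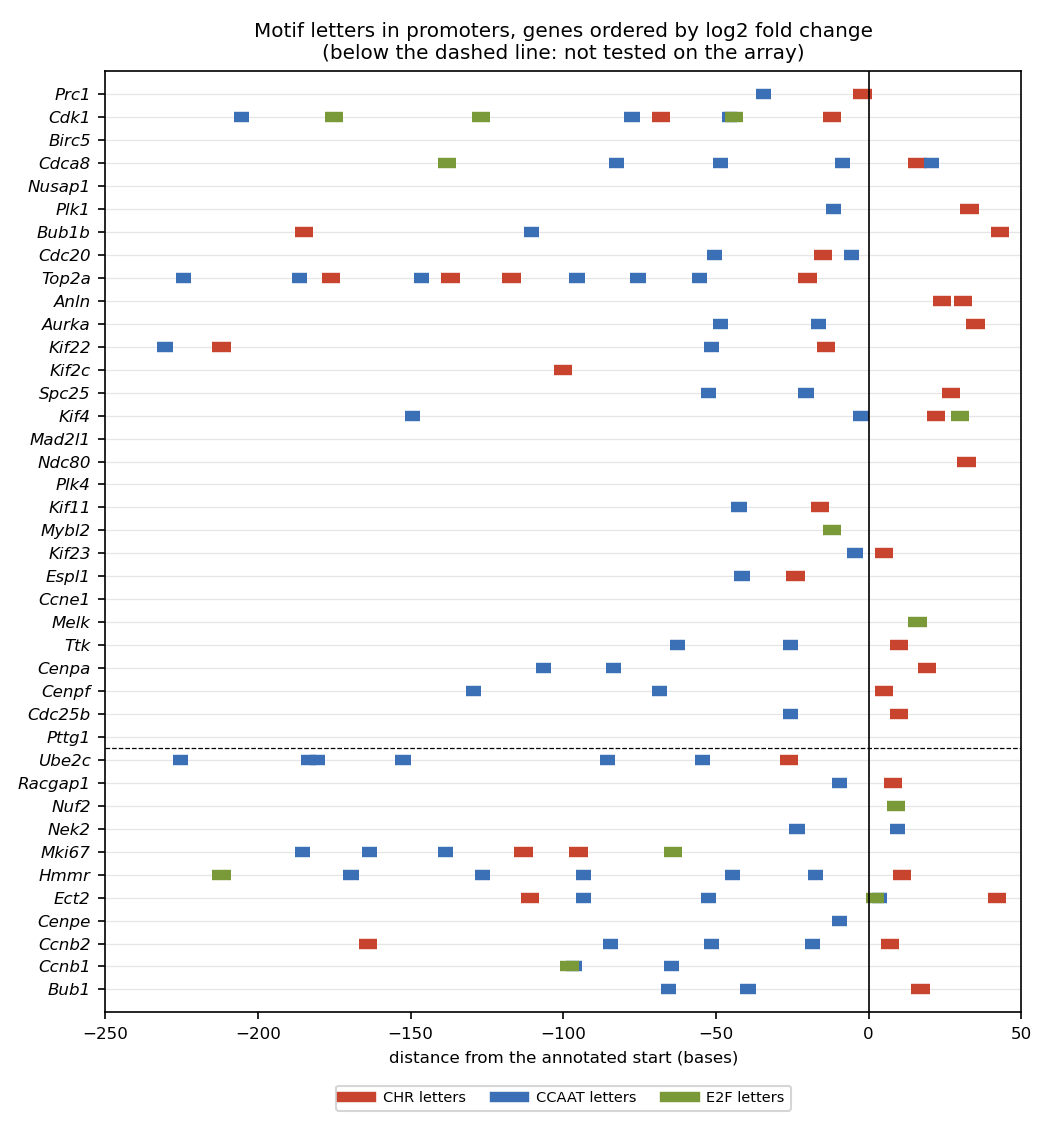
Position of the CHR, CCAAT and E2F letters in the promoters of 40 mitosis and cytokinesis genes, in bases from the annotated start (x axis, start at 0), with 1 gene per line ordered by its log2 fold change; for genes with more than 1 listed start the first is drawn. Red bars, the CHR letters, cluster within 60 bases before and 50 bases after the start, with blue CCAAT bars mostly upstream of them.

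Levels below are log2 of the background-corrected, quantile-normalized intensity plus 16, so the scale bottoms out at 4.16, and probes undetected against the negative control beads had a median of 4.35. Values are given in the order of arrays 109, 110 and 904 for uninjured hearts and 106, 107 and 886 for IR hearts. Differences are IR minus uninjured, with the standard error of the limma fit and a p adjusted over all 10204 genes by the Benjamini-Hochberg method, and a gene passed the test where this was under 0.05. Because of the added 16, differences of dim genes are understated. Detected probes made up 35.1% to 39.4% of all probes on uninjured arrays and 39.8% to 42.5% on IR arrays. The median level of the tested members was 4.83 to 4.91 on uninjured arrays and 7.35 to 7.39 on IR arrays.

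Of the 35 genes tested, 32 were higher in IR hearts (91.4%), where 39.4% of all genes tested were higher and 34.5% were lower. In all 32 the lowest IR array was above the highest uninjured array, which held for 40.7% of all genes, and the 2 lower genes were apart the other way, as were 35.9%. The median difference was 2.47 on the log2 scale, against 0.05 over all genes. At least a 4-fold rise was reached by 21 of the 35, against 4.94% of all genes. IR arrays lay close together, with a median SD of 0.061 per gene. Uninjured arrays were more spread, with a median SD of 0.181 and the highest, 0.516, for Cdc20. Most uninjured levels of these genes lay near background, however, and most IR levels lay well above it. Whether the hearts themselves differ in spread was not tested. Array 110 was the highest uninjured array for 19 of the 35 genes.

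How a gene came to be tested bears on these counts. Detection on 3 of the 6 arrays was required, and 9 of the 35 were detected on no uninjured array, so that they entered through IR hearts alone and had to be higher there. Of the 26 detected on at least 1 uninjured array, 23 were higher, 2 were lower and 1 did not pass, with a median of 2.76. Among these 26, 10 were detected on only 1 or 2 uninjured arrays, so their fold changes rest partly on undetected readings. Incenp, Kif4, Spc25 and Tpx2 were each detected on 1. The 14 whose probe was detected on all 6 arrays were higher without exception, with a median of 3.24, where 37.1% of the 8039 such genes were higher and 39.4% were lower. Without any filter, 34 of 46 were higher and 2 lower, where 20.8% of 19057 genes were higher, and the median was 1.76. In these bulk samples, more cells in division and more transcript per cell cannot be told apart, and neither can fewer cells and less RNA per cell.

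**Figure D2:**
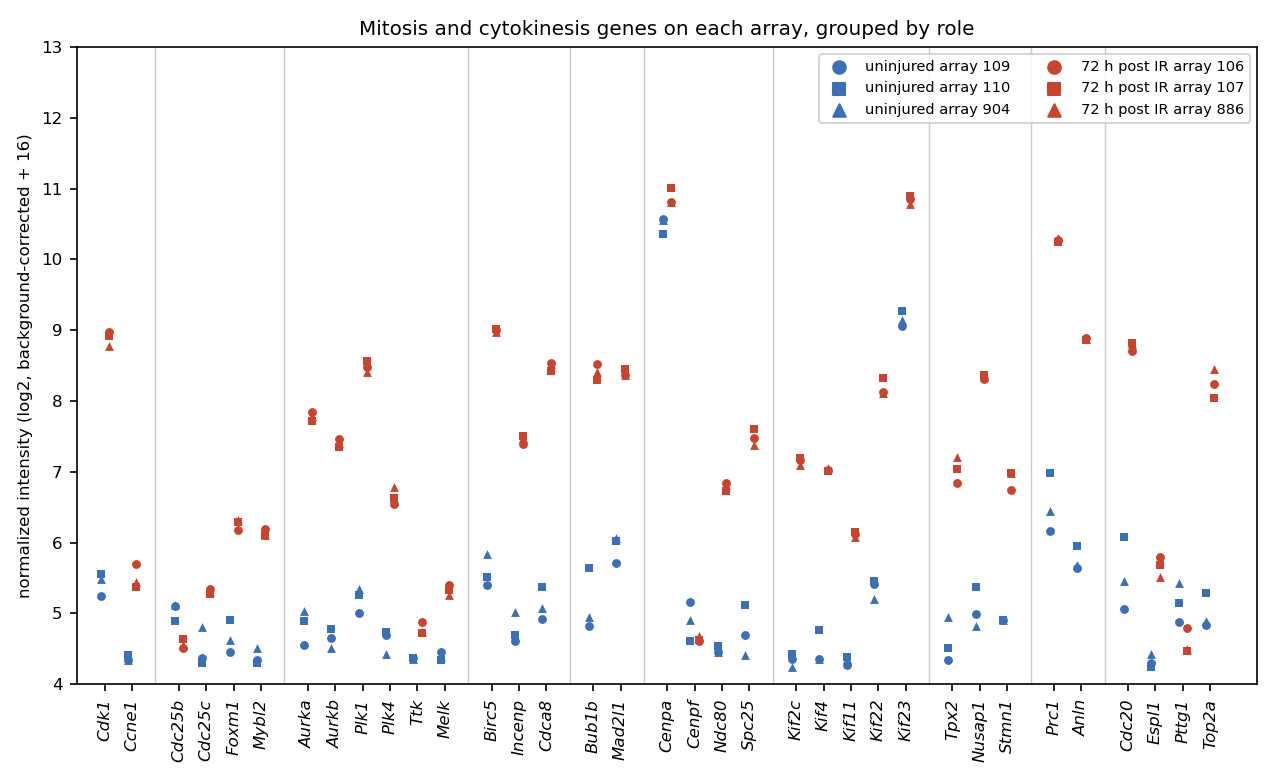
Level of each of the 35 tested mitosis and cytokinesis genes on each array (y axis, log2 of background-corrected normalized intensity plus 16; axis starts at 4), grouped by role between vertical lines in the order cyclins and Cdk1, phosphatases and transcription factors, kinases, passenger subunits, checkpoint, kinetochore, kinesins, spindle regulators, cytokinesis, anaphase. Blue points are uninjured arrays and red points IR arrays; the red points lie above the blue in 32 genes, below them in Cdc25b and Pttg1, and among them in Cenpf.

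Cyclins and the mitotic kinase come first in the order of events. Cdk1, whose activity with B-type cyclins starts mitosis, was at 5.24, 5.56 and 5.49 in uninjured hearts and 8.98, 8.91 and 8.78 in IR hearts. The groups lay far apart, and the gene rose by 3.46 ± 0.10, or 11.0-fold (adjusted p = 2.13e-07). As deposited, before any correction, that probe read 97.7 to 104 on uninjured arrays and 601 to 672 on IR arrays. Ccne1, cyclin E1, which acts earlier, at the start of DNA synthesis, was undetected in all uninjured hearts and was at 5.70, 5.37 and 5.45 in IR hearts, at least 1.64-fold higher (adjusted p = 2.59e-05). The cyclins of mitosis itself were hardly measured. Ccna2 had 4.25, 4.27 and 4.27 in uninjured and 4.56, 4.85 and 4.66 in IR hearts, was detected on 2 IR arrays and no uninjured array, and passed the test only when no filter was set (0.43, adjusted p = 0.00509 over 19057 genes). Ccnb2 was undetected on every array, and Ccnb1 had no probe under its name. Nor had Mki67, the Ki-67 antigen that coats mitotic chromosomes and serves as a common marker of proliferation.

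Among the phosphatases and transcription factors of mitotic entry, 3 of 4 rose. Foxm1, a forkhead activator of late cell cycle genes, was at 4.46, 4.91 and 4.62 in uninjured hearts and 6.18, 6.29 and 6.32 in IR hearts. It rose by 1.60 ± 0.12 (adjusted p = 1.30e-05). Mybl2, which encodes the B-Myb subunit that joins the MuvB core, was undetected in uninjured hearts and at 6.19, 6.11 and 6.10 in IR hearts, at least 2.53-fold higher (adjusted p = 1.13e-06). Cdc25c, a phosphatase that removes the inhibitory phosphates of Cdk1, was undetected in uninjured hearts and at 5.35, 5.27 and 5.30 in IR hearts, at least 1.42-fold higher (adjusted p = 0.00108).

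Cdc25b, the sister phosphatase, went 2 ways with its 2 kept probes. The brighter one was at 5.11, 4.90 and 5.12 in uninjured and 4.51, 4.65 and 4.56 in IR hearts, a fall by 0.47 ± 0.09 (adjusted p = 0.00170). It was detected on all uninjured arrays and on no IR array. As deposited, that probe read 95.6, 90.1 and 97.0 in uninjured and 90.6, 96.6 and 92.9 in IR hearts, which overlap. The dimmer one was at 4.27, 4.47 and 4.24 in uninjured and 4.98, 4.94 and 4.86 in IR hearts, a rise of 0.60, and was detected on the IR arrays only. With the mean of both probes the difference was 0.07 (adjusted p = 0.352; the adjusted p over all alternatives ranged from 5.34e-05 to 0.352), so the direction of Cdc25b depends on the probe.

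All 6 mitotic kinases tested rose. Plk1, the polo-like kinase of entry, spindle assembly and cytokinesis, was at 5.0, 5.26 and 5.35 in uninjured and 8.48, 8.57 and 8.41 in IR hearts. It rose 9.70-fold (3.28 ± 0.10, adjusted p = 2.79e-07). Aurka, the Aurora kinase of the spindle poles, was at 4.55, 4.89 and 5.03 in uninjured and 7.84, 7.72 and 7.79 in IR hearts, a rise of 2.96 ± 0.12. Plk4, which starts centriole duplication, rose by 2.04 ± 0.11, with 4.42 to 4.74 in uninjured hearts against 6.54 to 6.79. Melk, an embryonic zipper kinase, was undetected in uninjured hearts and at 5.40, 5.33 and 5.26 in IR hearts, at least 1.45-fold higher, and its 3 kept probes differed by 0.79 to 0.94. Ttk, the Mps1 kinase of the checkpoint, moved least, from 4.37, 4.36 and 4.36 to 4.87, 4.72 and 4.74 (0.41 ± 0.07, adjusted p = 0.00106). It was undetected in uninjured hearts and no fold bound above 1 could be set, and with median scaling over the kept probes its difference was -0.18 (adjusted p = 0.149; range over alternatives 0.000908 to 0.149). Bub1 and Nek2 were detected on 1 and 0 arrays and were not tested.

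The passenger complex, Aurora B with its partners, corrects faulty attachments and then moves to the midzone, and its 4 measured subunits rose together. Aurkb, the kinase, was at 4.65, 4.78 and 4.51 in uninjured and 7.46, 7.35 and 7.40 in IR hearts (2.76 ± 0.09, adjusted p = 2.56e-07). Birc5, survivin, was at 5.41, 5.51 and 5.83 in uninjured and 9.01, 9.02 and 8.98 in IR hearts. That was a 10.7-fold rise, and its 3 kept probes gave differences of 3.42 to 3.86. Cdca8, borealin, was at 4.92, 5.38 and 5.08 in uninjured and 8.53, 8.42 and 8.53 in IR hearts, 10.3-fold higher. Incenp, the scaffold, was at 4.61, 4.69 and 5.02 in uninjured and 7.39, 7.51 and 7.48 in IR hearts, 6.45-fold higher.

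Both checkpoint effectors, which bind and restrain Cdc20, were higher. Bub1b, BubR1, was at 4.83, 5.64 and 4.95 in uninjured and 8.52, 8.30 and 8.40 in IR hearts (3.27 ± 0.20, adjusted p = 5.22e-06), and array 110 stood above the other uninjured arrays. Mad2l1, Mad2, was at 5.71, 6.02 and 6.06 in uninjured and 8.37, 8.45 and 8.37 in IR hearts, a rise of 2.47 ± 0.10.

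Of 4 kinetochore and centromere genes tested, 3 rose, by very different amounts, and 1 did not pass. Ndc80, the microtubule-binding subunit of the outer kinetochore, was undetected in uninjured hearts and at 6.84, 6.73 and 6.82 in IR hearts, at least 4.01-fold higher (adjusted p = 2.01e-07). Its partner Spc25 was at 4.69, 5.12 and 4.41 in uninjured and 7.48, 7.61 and 7.38 in IR hearts, 6.74-fold higher. Cenpa, the histone variant that marks centromeres, differed little, from 10.57, 10.36 and 10.56 to 10.81, 11.01 and 10.80. The groups did not overlap and the difference of 0.38 ± 0.09 passed (adjusted p = 0.00749). It did not pass with the mean of its 2 kept probes (0.27, adjusted p = 0.120) or with median scaling over the kept probes (0.09, adjusted p = 0.387), the lowest over the alternatives being 4.52e-05.

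Cenpf, a large protein of the late-cycle nuclear matrix and kinetochore, was at 5.16, 4.61 and 4.91 in uninjured and 4.61, 4.63 and 4.68 in IR hearts. Its groups overlapped, and the difference of -0.25 ± 0.13 did not pass (adjusted p = 0.126). It was lower and passed without uninjured array 110 (-0.41, adjusted p = 0.00836) and with median scaling over the kept probes (-0.74, adjusted p = 0.00117), and over the alternatives the adjusted p reached 0.590. Nuf2, the partner of Ndc80, and Cenpe, a kinetochore motor, were not bright enough to be tested.

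Each of the 5 mitotic kinesins tested rose. Kif2c, MCAK, which takes microtubules apart at centromeres, was undetected in uninjured hearts and at 7.17, 7.20 and 7.10 in IR hearts, at least 5.14-fold higher (adjusted p = 1.59e-07), the highest bound among the members. Kif11, the Eg5 motor that pushes the spindle poles apart, was also undetected in uninjured hearts and at 6.12, 6.16 and 6.08 in IR hearts, at least 2.50-fold higher. Kif22, the chromokinesin Kid, was at 5.42, 5.46 and 5.21 in uninjured and 8.13, 8.33 and 8.11 in IR hearts, 7.10-fold higher. Kif4, a chromokinesin that also shapes the midzone, was at 4.35, 4.77 and 4.35 in uninjured and 7.03, 7.01 and 7.05 in IR hearts, 5.81-fold higher. Kif23, the motor of centralspindlin, was at 9.06, 9.27 and 9.15 in uninjured and 10.85, 10.90 and 10.78 in IR hearts (1.69 ± 0.08, adjusted p = 1.20e-06). The other 2 kept probes of Kif23 differed more, by 2.95 and 2.45. Kif20a was detected on no array.

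The spindle regulators Tpx2, Nusap1 and Stmn1 rose. Nusap1, which bundles spindle microtubules, was at 4.99, 5.38 and 4.82 in uninjured and 8.31, 8.37 and 8.34 in IR hearts, 9.72-fold higher. Tpx2, the activator of Aurora A, was at 4.34, 4.51 and 4.95 in uninjured and 6.85, 7.04 and 7.20 in IR hearts, 5.39-fold higher. Stmn1, stathmin, a tubulin-binding protein that is not limited to dividing cells, was at 4.91 on all 3 uninjured arrays and 6.74, 6.98 and 6.99 in IR hearts, 3.98-fold higher. Hmmr, a spindle and hyaluronan-binding protein, read high on 1 uninjured array. Its brighter probe was at 4.98, 4.56 and 6.74 in uninjured and 4.27, 4.23 and 4.44 in IR hearts, and detection on 2 uninjured arrays and no IR array kept it out of the test. Without a filter the difference of -1.11 did not pass (adjusted p = 0.156), and array 904 stood far above the other arrays.

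The cytokinesis genes held the largest difference of the 35 genes. Prc1, which cross-links the antiparallel microtubules of the midzone, was at 6.16, 6.98 and 6.44 in uninjured and 10.27, 10.25 and 10.31 in IR hearts. It rose 13.4-fold (3.75 ± 0.19, adjusted p = 1.82e-06). Its probe read 121, 164 and 133 as deposited in uninjured hearts and 1483, 1468 and 1529 in IR hearts. Anln, anillin, the scaffold of the contractile ring, was at 5.65, 5.95 and 5.68 in uninjured and 8.89, 8.87 and 8.87 in IR hearts, 8.66-fold higher, and a dimmer probe of Anln differed by 0.61. Of the pathway that activates RhoA at the cleavage site, neither Ect2 nor Racgap1 was bright enough to be tested. Ect2 passed only with no filter (0.26, adjusted p = 0.0141).

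At the exit from mitosis, 3 genes rose and 1 fell. Cdc20, the activator of the anaphase-promoting complex, was at 5.06, 6.08 and 5.46 in uninjured and 8.71, 8.82 and 8.81 in IR hearts (3.24 ± 0.23, adjusted p = 1.08e-05). All 4 of its kept probes were higher, by 1.34 to 3.24. Top2a, the topoisomerase that untangles sister chromatids, was at 4.84, 5.29 and 4.90 in uninjured and 8.25, 8.04 and 8.45 in IR hearts, 9.44-fold higher, and its other kept probe differed by 1.24. Espl1, separase, the protease that cuts cohesin, was undetected in uninjured hearts and at 5.80, 5.68 and 5.51 in IR hearts, at least 1.83-fold higher (adjusted p = 9.56e-06).

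Pttg1, securin, the inhibitor of separase, was at 4.88, 5.15 and 5.43 in uninjured and 4.79, 4.46 and 4.50 in IR hearts. The groups were apart by a narrow margin and the gene fell by 0.57 ± 0.16 (adjusted p = 0.0122). It was detected on 3 uninjured arrays and 1 IR array. As deposited, its only probe read 92.1, 94.5 and 103 in uninjured and 98.5, 91.2 and 91.1 in IR hearts, which overlap. Without arrays 904 and 886 the fall no longer passed (-0.40, adjusted p = 0.0800; the lowest over the alternatives was 0.000398). Ube2c, the ubiquitin-conjugating partner of the complex, was detected on 1 array of each group and not tested.

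Probe by probe, 52 of the 56 kept probes were higher and 2 lower, where 36.5% of the 18197 kept probes of the array were higher and 33.1% lower. Among 15 genes with more than 1 kept probe, all kept probes rose in 13, and Cdc25b and Cenpa were the others. Probes of 1 gene differed widely in size all the same, for example 1.68 and 3.27 for Bub1b, 2.05 and 3.37 for Cdca8, and 0.96 to 2.54 for Kif4. The 37 probes that were not kept had differences of -1.11 to 0.43 and mean levels of 4.25 to 4.87. Of these, 20 belong to 14 genes that also had a kept probe.

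**Figure D3:**
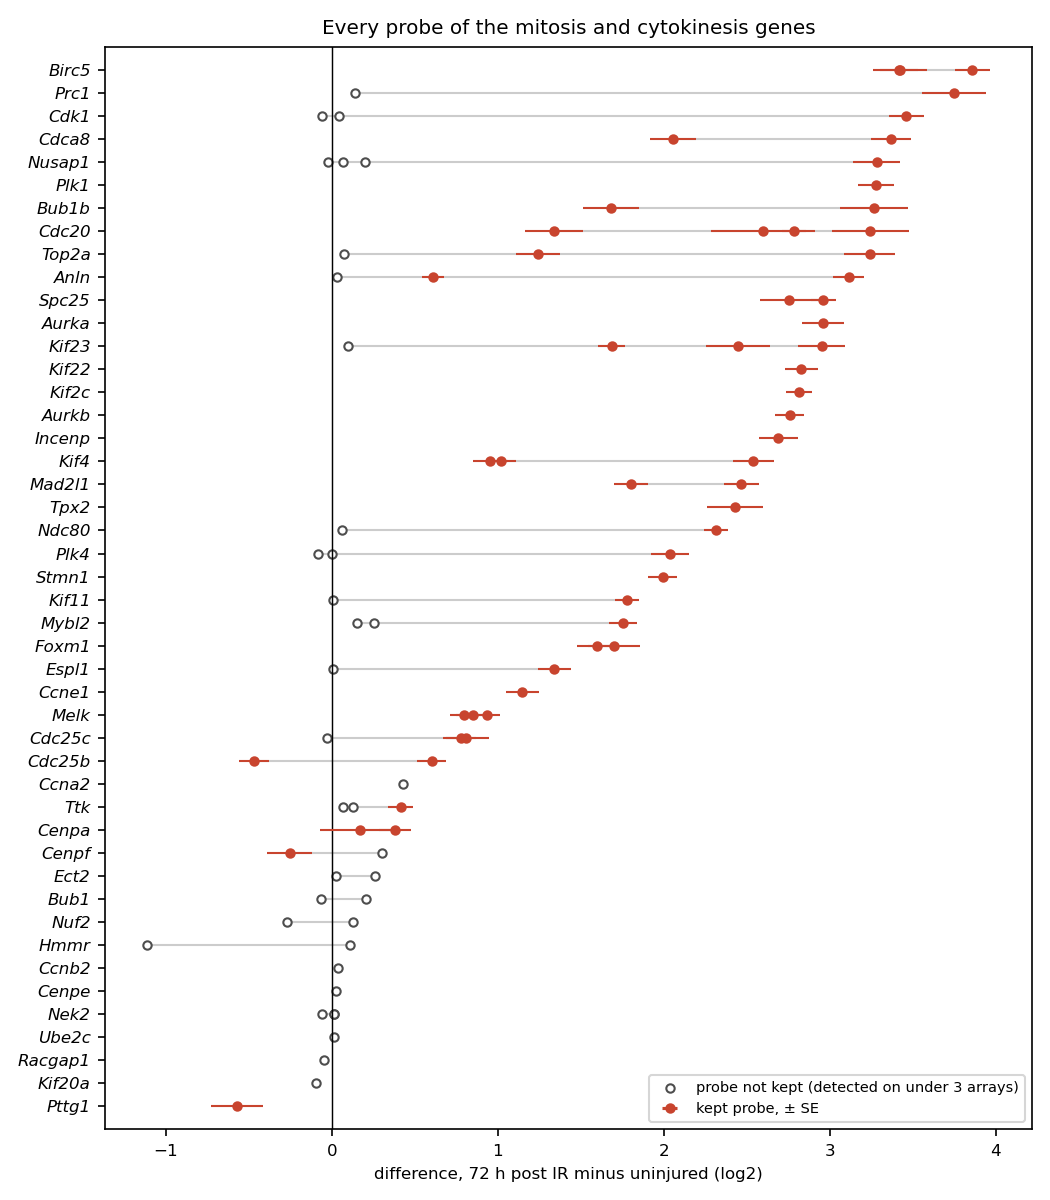
Difference in level (x axis, log2, IR minus uninjured) of all 93 probes of the mitosis and cytokinesis genes, 1 gene per line ordered by its highest probe. Filled red points are kept probes with the standard error of the fit and open points are probes detected on fewer than 3 arrays; open points lie between -1.11 and 0.43, while filled points of 1 gene can be up to 2.50 apart, as for Anln.

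Sizes depended on the treatment of background more than the calls did. Without background correction 32 of 35 genes moved by more than 1.5 times and the median fell to 1.20. With the authors' processed values it was 1.35 and with an offset of 50 it was 1.63, and the counts were 32 higher and 2 lower in each of the 3. Median scaling of the arrays over all probes shifted the median of all genes to 0.52, and over the kept probes alone it moved to -0.14.

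Beyond the 48 genes, 166 other mitosis genes were listed by function, of which 132 were tested: 86 rose (65.2%, against 39.4% of all genes), 16 fell and 30 did not pass, with a median of 0.60. They thus lay between the 48 genes and all genes on the array, in counts and in median. Among partners and regulators of the cyclin kinases, 8 of 12 rose, at a median of 0.79 (1.27 and 0.61 with median scaling over all and over kept probes). Pbk, a mitotic kinase, rose by 3.38 ± 0.23, Gtse1, which tracks microtubule ends, by 2.35 ± 0.16 and Haspin, the kinase that recruits the passenger complex, by 1.61 ± 0.13. The 4 that fell were Pkmyt1, an inhibitory kinase of Cdk1 (by 0.68), Nek9 (by 0.63), and the phosphatase inhibitors Ensa (by 0.58) and Arpp19 (by 0.35), none of which passed with median scaling over all probes, where Arpp19 was at 0.28.

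Of 27 other kinesins and spindle assembly genes, 19 rose and 4 fell, at a median of 1.19 (1.44 and 0.78 under those scalings). Knstrn rose by 2.80 ± 0.13, Spag5, astrin, by 2.80 ± 0.08 and Kif20b by 2.58 ± 0.13. The falls were of Haus1 (by 0.65), Nedd1 (by 0.61), Clasp2 (by 0.41) and Kifap3 (by 0.41), and with median scaling over all probes none passed and Kifap3 was at 0.21. Of 33 other kinetochore and checkpoint genes, 23 rose, at a median of 0.51 (1.02, with 32 higher, and 0.36, with 18 higher). Cenpn was at least 5.17-fold, Cenpk at least 4.95-fold and Spdl1, which brings dynein to kinetochores, at least 4.24-fold higher. Mad2l1bp, which takes Mad2 out of the checkpoint complex, fell by 0.50 and was at 0.09 with median scaling over all probes.

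A list of condensin, cohesin and chromosome separation genes together with Cdca3 and Cdca4 had 15 of 23 higher and 8 that did not pass, at a median of 0.57. Median scaling over all probes gave 20 higher and a median of 1.16, and over the kept probes 14 higher, 3 lower and 0.50. Cdca3 rose by 3.71 ± 0.14, Ncaph, a condensin I subunit, by 2.96 ± 0.07 and Cdca2 by 2.61 ± 0.12. Of 13 genes tested for the anaphase-promoting complex and its partners, 4 rose, a share near that of all genes, and 2 fell, at a median of 0.13. Median scaling over all probes gave 9 higher and a median of 0.64, and over the kept probes 2 higher and -0.02. Anapc15 rose by 1.14 ± 0.10, Anapc13 fell by 1.13 ± 0.07 and Anapc16 fell by 0.91 ± 0.07. Both falls passed under each scaling.

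Other cytokinesis and abscission genes had 18 of 25 higher and 5 lower, at a median of 0.90 (1.21 and 0.55 under the 2 scalings). Iqgap1, a cytoskeletal scaffold, rose by 2.48 ± 0.14 and Septin11 by 2.24 ± 0.10, and both act in cells that are not dividing too. Kiz, a centrosome protein, fell by 2.03 ± 0.08 and Kif13a, a motor of late cytokinesis, fell by 1.84 ± 0.10, and both passed under each scaling. Vps4a (by 0.60), Rock1 (by 0.51) and Tsg101 (by 0.24) also fell. With median scaling over all probes Vps4a and Rock1 did not pass, Rock1 was at 0.15, and Tsg101 passed as higher, at 0.37.

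A list of DREAM and MuvB subunits together with other E2F, pocket protein and CCAAT-factor genes had 9 of 15 higher and 5 lower, at a median of 0.30 (0.91 and 0.25 with median scaling over all and over kept probes). E2f1 and E2f6 are E2F proteins outside the DREAM complex. E2f1 rose by 2.75 ± 0.13 and Rbl1, the pocket protein p107, by 2.26 ± 0.14. Tfdp2, a dimer partner of E2F, fell by 2.35 ± 0.08 and E2f6 fell by 1.45 ± 0.07, and both passed under each scaling. Rbbp4 (by 0.73) and Nfyc (by 0.33), a subunit of the CCAAT-binding factor, fell but did not pass with median scaling over all probes. Dyrk1a fell by 0.24 ± 0.09 and only just passed (adjusted p = 0.04997).

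DNA replication genes had a median of 1.72, with 35 of 39 higher and 1 lower. Uhrf1 rose by 3.52 ± 0.21, Mcm5, a subunit of the replicative helicase, by 3.32 ± 0.11, and Mcm10 was at least 7.58-fold higher. Dut, the dUTPase, fell by 0.68 and did not pass with median scaling over all probes. G1 cyclins, kinases and inhibitors were mixed, with 9 of 15 higher, 4 lower and a median of 0.26 (0.77 and 0.11 with median scaling over all and over kept probes). Cdkn1c, the inhibitor p57, fell by 2.38 ± 0.12 and Ccng1 fell by 1.74 ± 0.07, whereas Cdkn1a, the inhibitor p21, rose by 1.61 ± 0.29. Ccnd2 (by 0.77) and Ccnh (by 0.64) fell but did not pass with median scaling over all probes. No difference between these lists was tested. Some of the genes counted had been detected on no uninjured array and entered through IR hearts alone: 9 of the 33 kinetochore genes, 6 of the 25 cytokinesis genes, 5 of the 39 replication genes, 4 of the 27 kinesin and spindle genes, and at most 3 in each of the other lists.

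**Figure D4:**
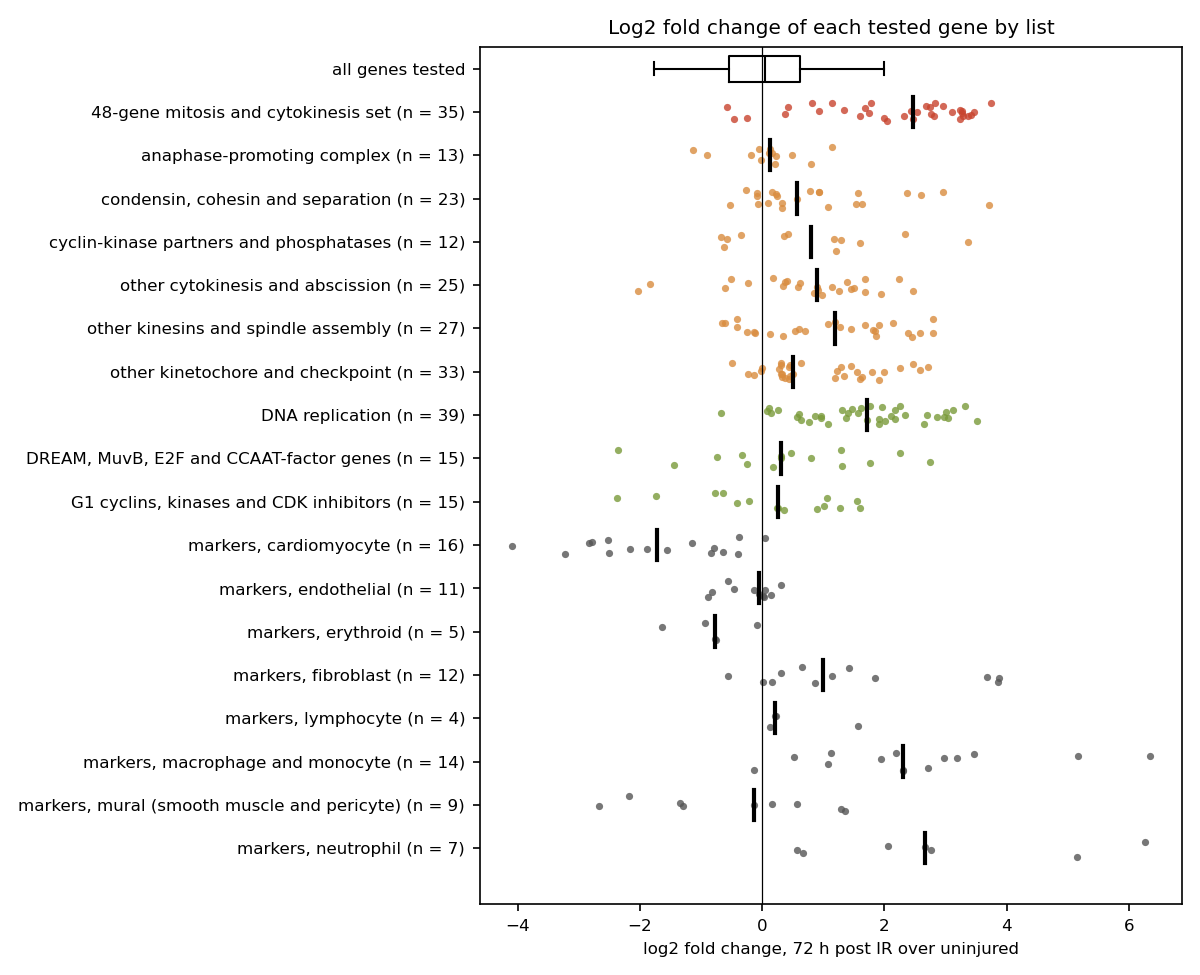
Log2 fold change (x axis, IR over uninjured) of each tested gene of each list, 1 point per gene with a black bar at the list's median; the box at the top spans the quartiles of all 10204 genes tested, with whiskers at the 5th and 95th percentiles. The median of the 35 tested genes of the 48-gene set, 2.47, stands above those of the other mitosis lists (0.13 to 1.19) and of DNA replication (1.72). It lies below that of the neutrophil markers (2.66) and above that of the macrophage and monocyte markers (2.30).

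Markers of the cells that could hold these transcripts also differed between the groups. Among those tested, 3 macrophage, 3 neutrophil, 1 fibroblast and 1 lymphocyte marker had been detected on no uninjured array and entered through IR hearts alone. Of 14 macrophage and monocyte markers tested, 13 rose, and their summed background-corrected level went from between 2849 and 3328 in uninjured hearts to between 30038 and 32509 in IR hearts. Lgals3 rose by 6.35 ± 0.08 and Trem2 was at least 33.5-fold higher, while Cd163 did not pass (-0.13, adjusted p = 0.704). All 7 neutrophil markers tested rose, from summed levels of 37.1 to 87.9 up to 2599 to 4052, led by S100a8 at 6.27 ± 0.26; with median scaling over the kept probes 5 of them were higher, while Camp, Elane, Ltf, Mmp8 and Ngp were not bright enough to be tested. Of 12 fibroblast markers, 9 rose, 1 fell and 2 did not pass, and the summed level went from 10219 to 10756 up to 16121 to 16352. Col1a1 rose by 3.86 ± 0.12 and Fbln1 fell by 0.56 ± 0.06, while Dcn, bright in both groups, did not pass (0.01, adjusted p = 0.934). With median scaling over all probes 10 were higher and 0 lower, and over the kept probes 8 were higher and 2 lower.

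Of 4 lymphocyte markers tested, 2 rose (320 to 375 against 448 to 465), 4 with median scaling over all probes and 1 over the kept probes, where 1 was lower, and Cd3e, Cd3g, Cd4, Cd79a, Cd8a, Ms4a1 and Nkg7 were not bright enough or had no probe. Endothelial markers had 1 higher and 4 lower of 11 (7550 to 7987 against 6864 to 7077). With median scaling over all probes 6 were higher and 1 lower, and over the kept probes 1 was higher and 6 lower. Mural cell markers had 3 higher and 4 lower of 9, and their sum was carried by Acta2, smooth muscle actin, which rose by 1.36 ± 0.08 and is also made by activated fibroblasts. With it the summed levels were 4370 to 4927 against 7690 to 8326, and without it, a choice made after its values were seen, 1715 to 1920 against 639 to 691. The pericyte markers did not move together. Abcc9 fell by 2.68 ± 0.08 and Rgs5 fell by 2.18 ± 0.11, whereas Pdgfrb rose by 0.56 ± 0.09. Cspg4 did not pass (0.15, adjusted p = 0.210). Cardiomyocyte markers were lower in 15 of 16, with summed levels of 160330 to 165279 without injury against 79752 to 84383 after it. Myh6 fell by 2.79 ± 0.07, and Actc1 did not pass (0.04, adjusted p = 0.612). Both are defining transcripts of heart muscle and were detected on all 6 arrays. Erythroid markers were lower in 4 of 5 (40573 to 42079 against 22080 to 24171). The part that any of these cell types has in the mitosis transcripts was not tested.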

How the data were processed

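Per the file headers, the deposited table gives a mean bead intensity and a detection p-value for 45281 probes on each of 6 arrays. The tool named is GenomeStudio 2010.3, per the submitters' processing notes. Neither background subtraction nor normalization had been applied to the deposited intensities, as read from their values, and the deposited p-values moved in steps of 1 in 936. The authors' processed values, a second deposited table of linear intensities, were an alternative only.

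With limma 3.58.1 in R 4.3.3, neqc took the background from the detection p-values, added 16, normalized by quantiles and took log2. Probes with a detection p-value under 0.05 on at least 3 of the 6 arrays were kept, 18197 in all, and a gene took its kept probe of highest mean. Groups were compared with lmFit and eBayes, two-sided, with Benjamini-Hochberg adjustment over all 10204 genes at 0.05. For a gene that no array of a group detected, a bound is given, the other group's mean over the mean of, per array, the higher of the dimmest detected signal and the probe's own. Symbols came from the platform annotation, matched by Entrez identifier to a RefSeq table; 34885 probes had 1 symbol, 18 several and 10378 none. Probes of near-identical genes can bind each other's transcripts.

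All 48 members are named. From each other list the text names the 3 largest differences that passed with groups apart and up to 5 genes that fell. Of marker lists it names up to 3 genes, more for the mural list, and some markers that were not tested. The members and lists were chosen with earlier results of these data known. The labels do not say that arrays came from separate mice, so the spread behind each p-value may be technical, and 3 arrays per group limit the precision. Alternatives covered background, scaling, filter, probe choice, fit and arrays left out.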

Additional observations from a re-analysis of the deposited data

How the results depend on the processing

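Under 19 alternatives each, the count of mitosis and cytokinesis genes higher stayed between 30 and 34 except with probes detected on all 6 arrays, where 14 of 14 were higher and 0 lower, fewer genes being tested. The median of 2.47 became 1.20 without background correction, 1.63 with an offset of 50, 2.83 and 2.17 with median scaling over all or over kept probes, 1.76 without a filter, 3.24 with probes detected on all 6 arrays and 2.24 with the mean of the kept probes. It was 1.35 with the authors' values and also with their replicate block, whose numbers did not pair the samples (correlations of deviations from -0.071 to -0.011, and 0 samples closest to their own number); the block left 3941 genes higher over the whole array, against 4001. Leaving out 1 array gave 2.36 to 2.56, and leaving out arrays 904 and 886 gave 2.54, with 1 gene and 1 probe lower. The count of genes lower was also 1 with the mean of the kept probes. Other mitosis genes were higher in 42 of 77 with probes detected on all 6 arrays, and lower in 4 or 25 with median scaling over all or over kept probes. With probes detected on all 6 arrays, 17 of 17 member probes were higher and 0 lower; median scaling over all probes left 1 lower. Over the whole array, that scaling made 59.8% of genes higher and that over kept probes 32.6%. CHR letters were in 9 promoters in the 100 bases before the start, and E2F letters in 4 there and in 6 in the window chosen later. Cdc25b turned to 0.066 with the mean of its probes and Ttk to -0.18 with median scaling over the kept probes. Beyond the construction of each alternative, the cause was not tested. A slide block was not run because slides are not named in the sources used here. Detection on fewer than 3 arrays left 11 genes with probes untested.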
